A study of Mus musculus with 167 samples.

Results

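The genes described here encode the folate handling proteins that bear on pemetrexed, an antifolate given for mesothelioma. There are 9 of them among the 36118 genes of the deposited table, chosen by name, with earlier results of these data known. Folr1, Folr2, Slc19a1 and Slc46a1 carry folates and antifolates into cells, Fpgs keeps them there, Tyms and Gart are enzymes that pemetrexed inhibits, and Shmt2 and Mthfd2 belong to the mitochondrial arm of folate metabolism. All 9 were found in the table by their Ensembl identifier.

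Folates carry one-carbon units that cells need to make thymidylate and purines, and so to copy DNA. Folylpolyglutamate synthetase adds glutamates to folates and to pemetrexed once they are inside, which holds them in the cell and makes polyglutamated pemetrexed a stronger inhibitor of its target enzymes, thymidylate synthase and the GART enzyme among them. In mitochondria, serine hydroxymethyltransferase and MTHFD2 pass the one-carbon unit of serine towards formate, which the cytosol uses for purine and thymidylate synthesis, and dividing tumour cells are known for high levels of both.

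RNA was sequenced from 167 tumours of 119 mice of 35 strains. Each mouse had a father of a Collaborative Cross strain and a MexTAg mother, MexTAg being a transgenic mouse in which the mesothelin promoter drives SV40 large T antigen in mesothelial cells. Every mouse of both groups had received crocidolite asbestos fibres from Wittenoom in the peritoneal cavity, as 2 injections of 3 mg a month apart, and the labels give no drug treatment for any of them. The tumours were labelled as coming from mice below or above median survival: 36 mice with 52 tumours were below it, and 83 mice with the remaining tumours were above it. How that median was set, and the sex and age of the mice, were not part of the labels. Both groups carried the same transgene and the same fibres, so there was no untreated or pemetrexed-treated group, and by the labels the tumours had met no antifolate. The tumours were taken whole, so that a lower level can mean fewer cells of a type or less RNA per cell, and the 2 cannot be told apart.

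The strains were spread unevenly over the survival labels: 13 strains held mice of both groups, 6 held mice below the median only and 16 held mice above it only. Library totals ran from 11138491 to 35399287 estimated counts (median 22539831). The tumours of a mouse were summed because survival belongs to the mouse. Markers of mesothelium were detected throughout, with a summed level of 93.4 to 4616 CPM (counts scaled to library size) in mice below the median and 27.5 to 6693 CPM in mice above it, and none of the 14 was at 0 in every mouse. In 19 libraries over 1% of counts came from genes of another tissue. The highest such shares were 46.3% reproductive tract genes in 1 tumour of mouse LOX-B4, 21.5% hepatocyte genes in mouse LAX-E2 and 15.2% hepatocyte genes in mouse TAS-I1. For 5 libraries the levels of 300 genes that differ between strains lay nearer to another strain than to the labelled one: tumour 2 of each of Rogan-C3, LOX-D1, LAT-F5 and LAT-D3, and tumour 1 of MEE-A3. They were kept under their labels. The tests between survival groups and between strains were also fitted without them. Strain means, variance shares, ranges between tumours, correlations and likeness counts include them.

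The results below turn most on Tyms, Gart, Shmt2 and Mthfd2, which rose with the level of Mki67 and were highest in the same strain. To show which simple boxes their promoters hold, the 250 bases before the annotated start of these 4 genes are printed, from RefSeq on GRCm38.p6. Capitals mark the GC box GGGCGG and the box CCAAT, on either strand. The windows are chr5:30073626-30073875 for Tyms, chr16:91646973-91647222 for Gart, chr10:127522445-127522694 for Shmt2 and chr6:83317605-83317854 for Mthfd2, all on the minus strand.
Tyms: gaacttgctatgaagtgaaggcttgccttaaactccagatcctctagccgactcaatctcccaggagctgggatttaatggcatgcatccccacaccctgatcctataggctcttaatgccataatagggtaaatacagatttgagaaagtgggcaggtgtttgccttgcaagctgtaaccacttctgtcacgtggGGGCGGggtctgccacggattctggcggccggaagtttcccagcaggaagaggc
Gart: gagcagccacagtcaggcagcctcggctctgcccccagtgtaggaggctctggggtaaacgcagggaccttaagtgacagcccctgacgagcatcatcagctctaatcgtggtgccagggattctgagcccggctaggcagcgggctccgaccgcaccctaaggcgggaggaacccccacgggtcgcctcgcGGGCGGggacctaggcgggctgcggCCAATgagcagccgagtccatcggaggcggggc
Shmt2: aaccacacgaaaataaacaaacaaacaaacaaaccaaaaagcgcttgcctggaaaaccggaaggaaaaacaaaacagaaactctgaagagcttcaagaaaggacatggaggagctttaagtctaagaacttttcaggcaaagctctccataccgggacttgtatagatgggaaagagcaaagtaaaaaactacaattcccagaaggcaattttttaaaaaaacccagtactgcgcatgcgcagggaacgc
Mthfd2: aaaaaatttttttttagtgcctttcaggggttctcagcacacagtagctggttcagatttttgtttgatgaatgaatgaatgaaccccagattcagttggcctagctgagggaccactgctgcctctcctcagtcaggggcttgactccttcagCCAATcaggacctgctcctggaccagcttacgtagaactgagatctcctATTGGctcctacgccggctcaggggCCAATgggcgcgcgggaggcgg

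The Tyms window holds 1 GC box, 54 to 49 bases before the start, and a CACGTG box 61 to 56 bases before it. The Gart window holds a GC box at 58 to 53 bases and a CCAAT box at 33 to 29 bases. The Mthfd2 window holds 3 CCAAT boxes, at 96 to 92, 47 to 43 and 22 to 18 bases before the start, and the Shmt2 window holds neither box. The Mthfd2 window lies inside the span that GENCODE gives the gene, which begins further upstream. Bases before that other start were not examined. Of 32851 mouse promoter windows of the same length, 32.74% hold GGGCGG, 33.85% hold CCAAT and 6.02% hold CACGTG, on either strand. Windows were found for 8 of the 9 genes. In none of them did TTTNNCGC occur, a motif of the E2F type that 4.28% of windows hold, nor TGATGNAA, a motif of the kind bound by ATF4 that 3.45% hold. Absence of these letters says nothing of binding by the factors.

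Set against exon length, the median level over all mice was highest for Shmt2 at 43.4 CPM per kilobase, followed by Mthfd2 at 18.6, Gart at 14.2, Tyms at 12.2 and Fpgs at 11.3 CPM per kilobase. The carriers were lower, with medians of 7.85 CPM per kilobase for Folr2, 3.97 for Slc19a1, 3.05 for Slc46a1 and 0.239 for Folr1. The genes also differed in how far they ranged between mice. The 90th percentile of CPM over mice was 30.3 times the 10th for Folr1 and 7.61 times for Folr2, against 4.37 times for Mthfd2, 4.34 for Shmt2, 3.79 for Slc46a1, 3.22 for Tyms, 3.02 for Slc19a1, 2.53 for Gart and 2.504 for Fpgs.

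**Figure D1:**
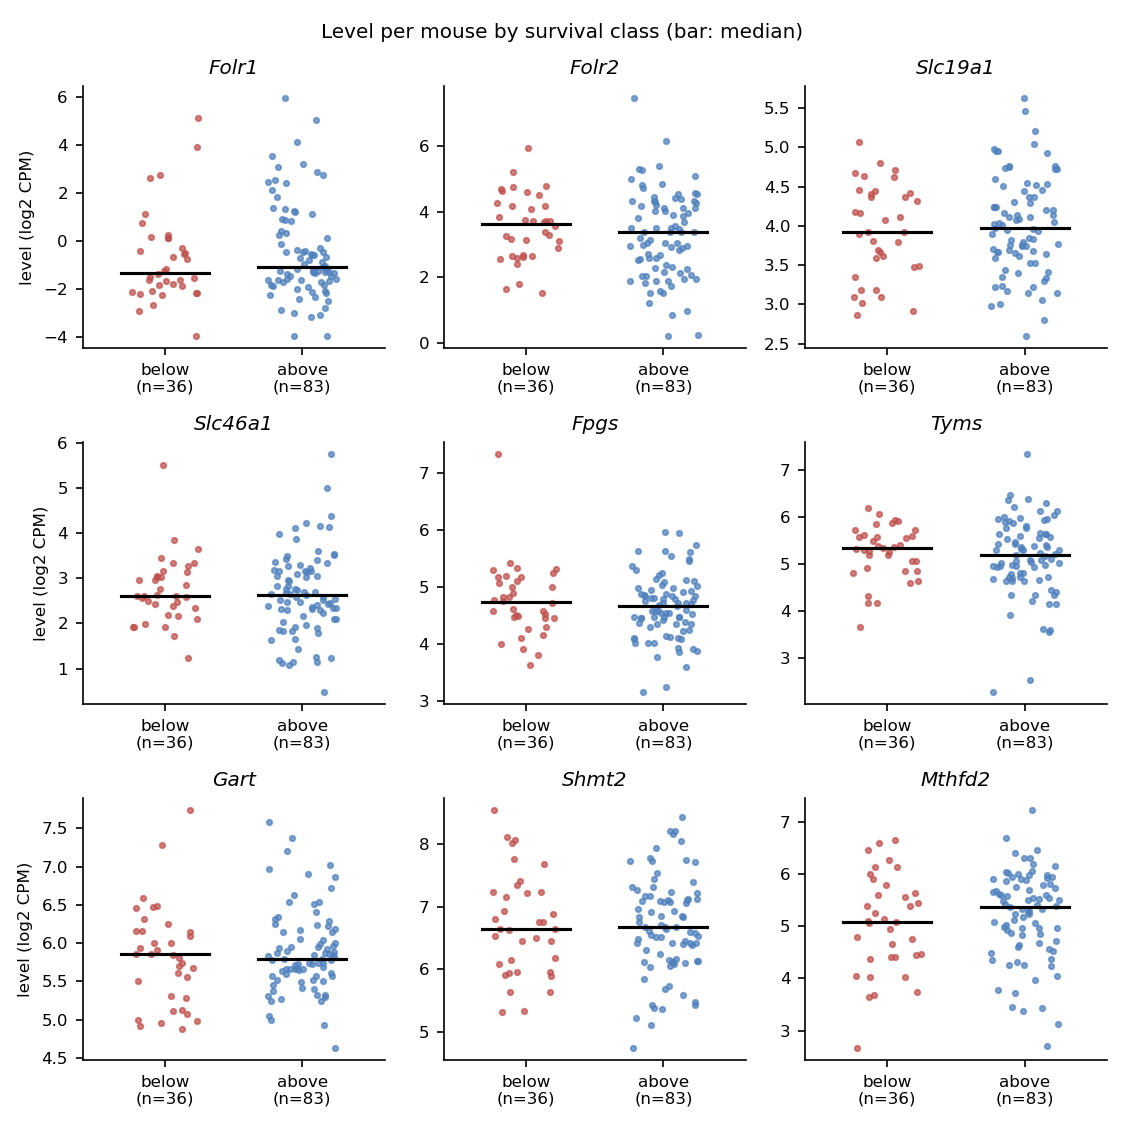
Level of each folate gene in each mouse (log2 CPM, vertical axis) for mice below median survival (left in each pair) and above it (right); each point is a mouse and the bar is the median. The groups overlap over most of their range for all 9 genes, and the medians lie close together.

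The first question was whether the levels differed between mice below and above median survival. None of the 9 genes was called, with an adjusted p of at least 0.733 for each, while 1.56% of all genes tested were (267 of 17091; edgeR's quasi-likelihood F-test on counts summed per mouse, Benjamini-Hochberg adjustment over all genes tested, called at an adjusted p under 0.05). At an unadjusted p under 0.05 the count was also 0 of 9, and limma-voom and DESeq2 likewise called 0. Without mouse TAS-I1 the share over all genes was 0.858%, and the count of the 9 was again 0. The median log2 difference of the 9 genes was -0.01, against -0.02 for all genes tested. With the Mki67 level of each mouse as a covariate, 0 of the 9 were called, against 0.544% of all genes (93 of 17090). Mki67 encodes a nuclear protein of dividing cells and stands here for proliferation.

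Among the carriers, Folr1 (ENSMUSG00000001827, chr7:101858331-101870788, minus strand, GRCm38) encodes folate receptor alpha, a receptor of epithelia and mesothelium that is anchored to the membrane. Its level was 0 to 34.7 CPM with a median of 0.337 CPM in mice below median survival, against 0 to 62.6 CPM with a median of 0.405 CPM in mice above it. Most mice of both groups were under 2 CPM and a few reached far higher. The log2 difference, below minus above, was -0.24 ± 0.50 (SE), with a 95% interval of -1.22 to 0.74 that leaves room for a change of more than 1 log2 unit downwards. It was -0.64 with Mki67 as a covariate and -2.58 ± 1.14 in the 30 mice with libraries over 2 CPM of Umod, a kidney gene (edgeR adjusted p = 0.599). The sign turned in the libraries with up to 2 CPM of Umod, at 0.42. In the fits that each left out a strain the difference reached 0.20 at its highest. The highest mouse, CC081-C5, alone held 20.9% of the Folr1 CPM summed over mice, and its kidney marker list summed to 4355 CPM, against a median of 4.28 CPM over all mice; the part of kidney in that level was not tested.

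Folr2 (ENSMUSG00000032725, chr7:101839988-101857194, minus strand) encodes folate receptor beta, carried by macrophages, and lies next to Folr1. It measured 2.81 to 60.9 CPM with a median of 12.2 CPM in mice below the median and 1.10 to 175 CPM with a median of 10.2 CPM in mice above it. The groups overlapped, and the log2 difference was -0.01 ± 0.25 (95% interval -0.51 to 0.48). The highest mouse was LAX-G3, in which the macrophage list summed to 10200 CPM, against a median of 1615 CPM over all mice; its intestine list summed to 8062 CPM, against a median of 5.32 CPM. TAS-J2, at 60.9 CPM the highest mouse of Folr2 below the median, had a macrophage sum of 1519 CPM. The part of macrophages in these levels was not tested.

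Slc19a1 (ENSMUSG00000001436, chr10:77032241-77061002, plus strand) encodes the reduced folate carrier, the main route of folates into most cells. It measured 7.21 to 33.5 CPM with a median of 15.1 CPM in mice below the median and 5.99 to 49.5 CPM with a median of 15.6 CPM in mice above it, a log2 difference of -0.09 ± 0.12 (95% interval -0.33 to 0.15). Slc46a1 (ENSMUSG00000020829, chr11:78465697-78472059, plus strand) encodes the proton-coupled folate transporter, which works best at acid pH and takes up pemetrexed well. It measured 2.29 to 45.5 CPM with a median of 6.03 CPM below and 1.33 to 53.8 CPM with a median of 6.08 CPM above. Its log2 difference was -0.004 ± 0.19 (95% interval -0.37 to 0.37). The highest mouse of each group was one of those with liver RNA, TAS-I1 below the median and LAX-E2 above it.

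Fpgs (ENSMUSG00000009566, chr2:32682609-32704145, minus strand), the synthetase that adds the glutamates, measured 12.4 to 162 CPM with a median of 26.6 CPM in mice below the median and 8.87 to 62.6 CPM with a median of 25.3 CPM in mice above it. Its log2 difference of 0.19 ± 0.12 was the largest upwards of the 9 (95% interval -0.05 to 0.44; unadjusted p = 0.123, edgeR adjusted p = 0.733). The 162 CPM belonged to TAS-I1, the mouse with 15.2% hepatocyte counts. Without that mouse the log2 difference was -0.01 (edgeR adjusted p = 0.994). In the 35 fits that each left out a whole strain the difference stayed above 0, at 0.0148 to 0.25.

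Of the drug's targets, Tyms (ENSMUSG00000025747, chr5:30058202-30073617, minus strand) encodes thymidylate synthase, which makes dTMP from dUMP. It measured 12.6 to 73.5 CPM with a median of 40.4 CPM in mice below the median and 4.81 to 162 CPM with a median of 36.4 CPM in mice above it. The log2 difference was -0.01 ± 0.14, with a 95% interval of -0.29 to 0.26. Of the 31-base words of its transcripts 9.82% also occur in other genes, 326 of them in the pseudogene Tyms-ps, and how kallisto shared those reads cannot be told from the counts. Gart (ENSMUSG00000022962, chr16:91621186-91646952, minus strand) encodes an enzyme with 3 activities of purine synthesis, among them glycinamide ribonucleotide formyltransferase. It measured 29.4 to 214 CPM with a median of 57.8 CPM below and 24.7 to 191 CPM with a median of 55.5 CPM above, a log2 difference of -0.03 ± 0.12 (95% interval -0.26 to 0.21).

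Of the mitochondrial enzymes, Shmt2 (ENSMUSG00000025403, chr10:127517123-127522444, minus strand), which splits serine into glycine and a one-carbon unit, measured 39.6 to 375 CPM with a median of 99.8 CPM in mice below the median and 26.6 to 348 CPM with a median of 102.2 CPM in mice above it. Its log2 difference was 0.06 ± 0.16 (95% interval -0.25 to 0.36). Mthfd2 (ENSMUSG00000005667, chr6:83305691-83325908, minus strand), which oxidises that unit in the next step, measured 6.28 to 99.7 CPM with a median of 33.9 CPM below and 6.47 to 150 CPM with a median of 41.2 CPM above. Its log2 difference was -0.12 ± 0.17 (95% interval -0.44 to 0.21), and the groups overlapped over nearly all of their range.

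**Figure D2:**
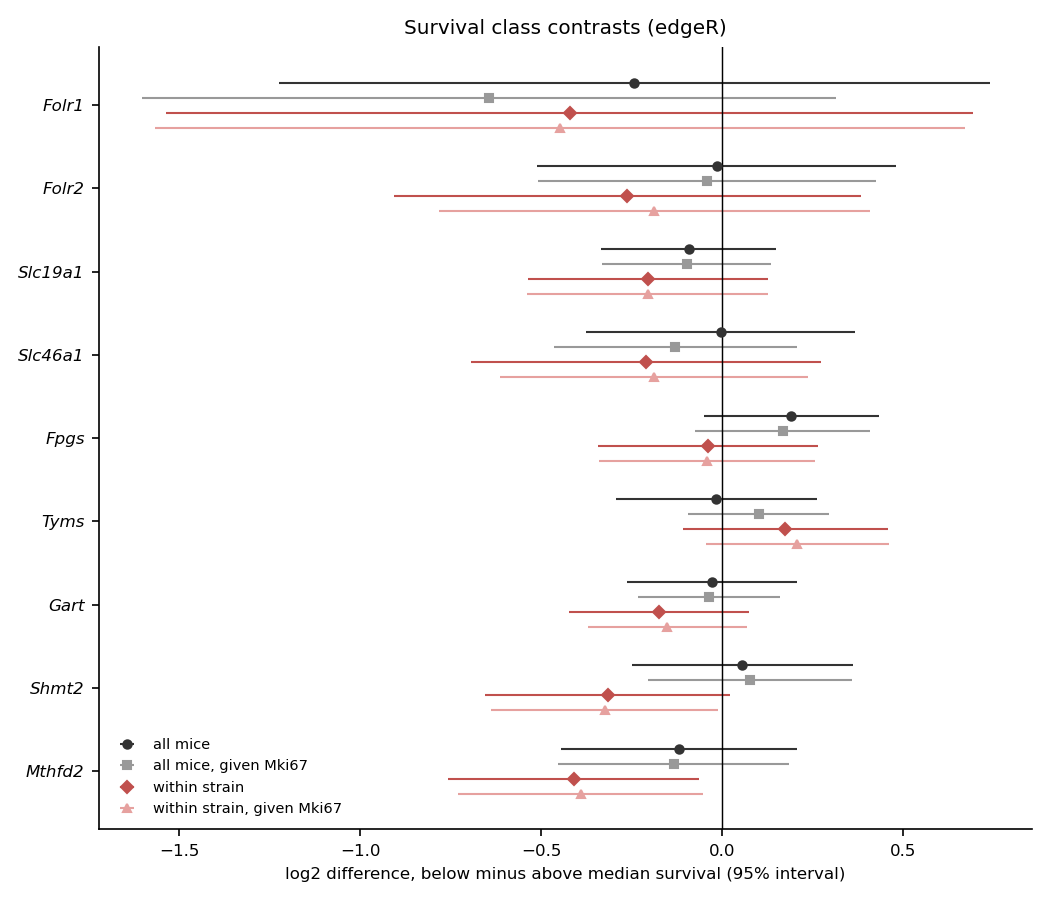
Log2 difference of each folate gene, mice below minus mice above median survival (horizontal axis), with 95% intervals, from the comparison of all 119 mice and of the 57 mice of strains with both groups, each without and with Mki67 as a covariate. All intervals of the 119 mice include 0; within strains the interval of Mthfd2 lies below 0 both ways and that of Shmt2 only with Mki67.

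Since whole strains fell on 1 side of the median, the groups were also compared within the 13 strains that held both, on 22 mice below and 35 mice above the median. Again 0 of the 9 genes were called, and so were 0% of all genes (0 of 16481), although 1882 genes had an unadjusted p under 0.05. DESeq2 called 65 genes and limma-voom 0 in this comparison, and neither called any of the 9. The lowest p among the 9 was that of Mthfd2, with a log2 difference of -0.41 ± 0.18 (95% interval -0.76 to -0.06; unadjusted p = 0.0255, edgeR adjusted p = 0.420). Its strain mean was lower in the below-median mice in 10 of the 13 strains. The differences were largest downwards in VIT at -2.48, where 1 mouse stood on each side, and in VUX at -2.07 with 1 mouse below and 3 above. They were largest upwards in GIT at 0.74 and CC040 at 0.52. With Mki67 in the same model the Mthfd2 difference was -0.39 ± 0.17 (unadjusted p = 0.0284, edgeR adjusted p = 0.420) and that of Shmt2 was -0.32 ± 0.16 (unadjusted p = 0.0490, edgeR adjusted p = 0.438). Neither holds after adjustment over all genes. Tyms stood the other way at 0.21 ± 0.13 (95% interval -0.05 to 0.46), and its Mki67-adjusted strain mean was higher in the below-median mice in 9 of the 13 strains.

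Of the 62 other genes of folate, purine, thymidylate and serine metabolism and of antifolate export, 3 differed between all mice below and above the median, and all 3 were higher below it, as were 0.983% of all genes tested. Aldh1l1, the cytosolic enzyme that oxidises formyl-folate to carbon dioxide, had a log2 difference of 1.66 ± 0.39 (edgeR adjusted p = 0.00563). Dmgdh, a mitochondrial dehydrogenase of choline breakdown, differed by 2.43 ± 0.63 (edgeR adjusted p = 0.0182) and Cth, which makes cysteine from cystathionine, by 2.03 ± 0.39 (edgeR adjusted p = 0.000349). All 3 are abundant in liver. Their highest mouse below the median was TAS-I1, with 1581 CPM of Aldh1l1, 742 CPM of Dmgdh and 649 CPM of Cth, and their highest mouse above it was LAX-E2, with 479, 190 and 85.7 CPM. The medians were closer: 9.16 CPM below and 7.70 CPM above for Aldh1l1, 0.604 and 0.295 CPM for Dmgdh, and 5.17 and 2.37 CPM for Cth. None of the 62 was called with Mki67 as a covariate or within strains. Of the hepatocyte list 1 of 10 genes was also higher below the median, while 5 of 7 kidney genes, 4 of 8 reproductive tract genes and 4 of 8 intestinal genes were lower; the part of those tissues in the 3 calls was not tested.

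What the levels did follow was Mki67. Its own level was 60.6 to 1396 CPM with a median of 238 CPM in mice below the median and 6.34 to 1519 CPM with a median of 292 CPM in mice above it. Of the 9 folate genes 8 changed with it, 5 upwards and 3 downwards, against 53.7% of all genes (9184 of 17090), 23.9% upwards and 29.8% downwards. The sizes set the genes apart from each other. Tyms rose by 0.45 ± 0.04 log2 units per log2 unit of Mki67 (edgeR adjusted p = 4.70e-18), Gart by 0.24 ± 0.03 (5.64e-10) and Shmt2 by 0.24 ± 0.05 (2.47e-05). Slc19a1 rose by 0.13 ± 0.04 (0.00735) and Mthfd2 by 0.12 ± 0.05 (0.0463). The receptors and the proton-coupled transporter fell, Folr1 with a slope of -0.78 ± 0.18 (0.000103), Folr2 with -0.40 ± 0.10 (0.000189) and Slc46a1 with -0.40 ± 0.07 (1.27e-06). Fpgs had a slope of -0.09 ± 0.05 (edgeR adjusted p = 0.106), which did not pass, but it was called with RLE in place of TMM normalization factors at -0.11 (0.0369) and in libraries with up to 10 CPM of Svs5, a seminal vesicle gene, at -0.13 (0.0353).

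**Figure D3:**
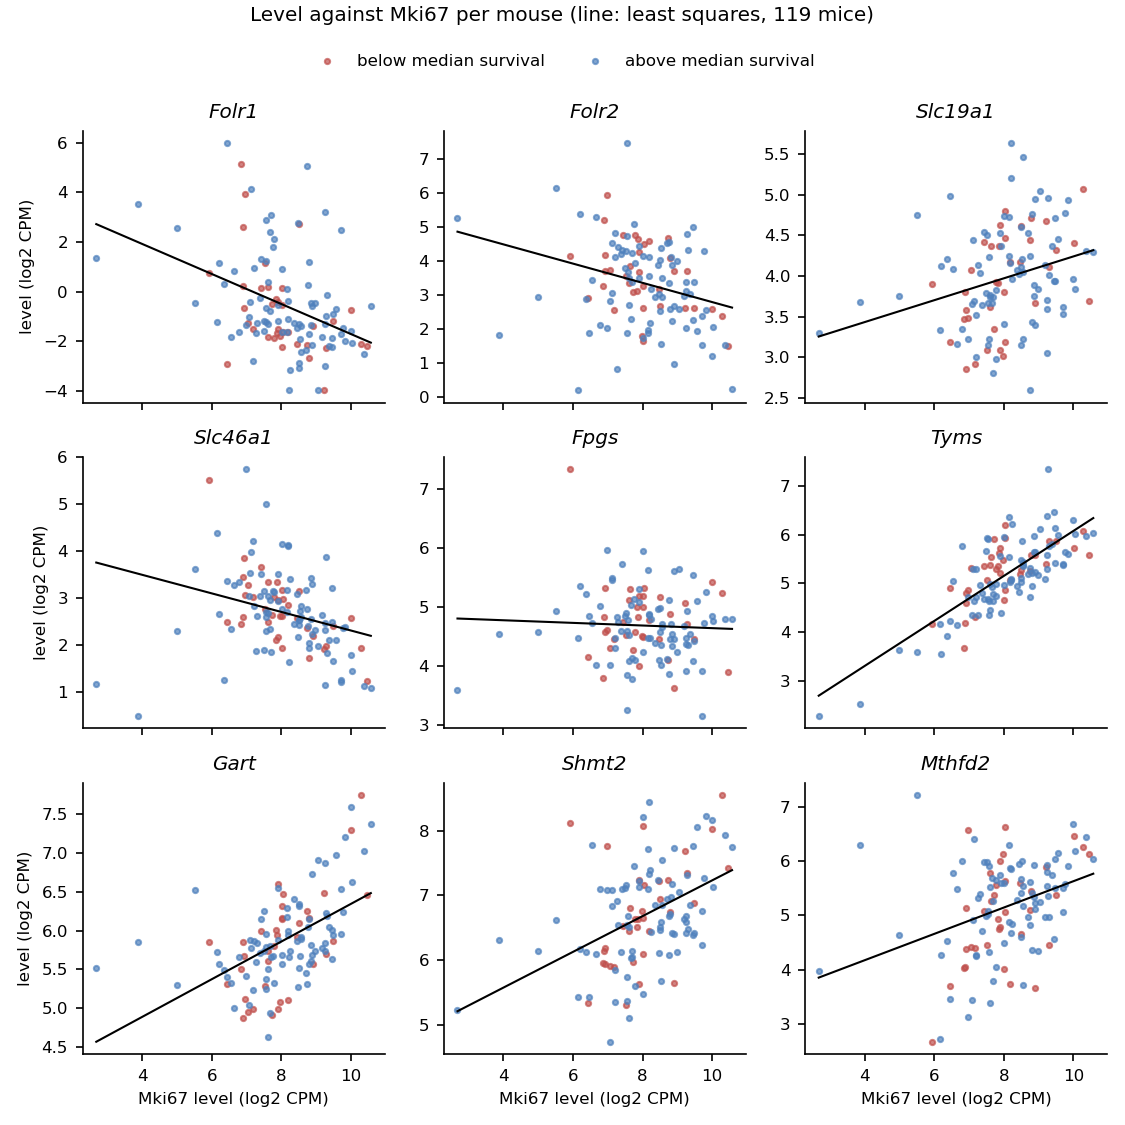
Level of each folate gene (log2 CPM, vertical axes) against that of Mki67 (log2 CPM, horizontal axes) in 119 mice, with mice below median survival in red, mice above it in blue, and a least-squares line. Tyms follows the line most closely; Folr1, Folr2 and Slc46a1 slope downwards and Fpgs has the slope nearest to 0.

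Over 119 mice, Pearson's r of Tyms with Mki67 was 0.770 and Spearman's rho 0.692, each with a permutation p of 1e-05, the smallest that 100000 permutations can give, and adjusted values of 6.95e-05 and 6.88e-05 over the 17090 genes for which the relation was computed. Mki67 accounted for 59.3% of the variance of Tyms, and the SD of Tyms over mice was 0.48 log2 units after regression on Mki67, against 0.75 before it. The correlation was 0.649 in mice below the median and 0.802 in mice above it, 0.700 after centring on strain means and 0.698 without the 2 mice farthest from the Mki67 median. Gart had r of 0.528 and rho of 0.551 (p = 1e-05 for each), with 0.629 below and 0.502 above. Shmt2 had r of 0.442 and rho of 0.433, and Mthfd2 r of 0.348 and rho of 0.352 (permutation p = 0.00016 and 0.00013, adjusted 0.000715 and 0.00063). For Gart, Shmt2 and Mthfd2 the value centred on strains stayed positive, at 0.480, 0.512 and 0.344.

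The carriers were less even. Slc46a1 had r of -0.288 and rho of -0.442 (permutation p = 0.00182 and 1e-05, adjusted 0.00581 and 6.88e-05), but r was -0.671 in mice below the median and -0.184 in mice above it, and -0.125 after centring on strains. Without the 2 mice farthest from the median of Mki67 its r was -0.514. Folr2 had r of -0.287 and rho of -0.287 (permutation p = 0.00166 for r, adjusted 0.00539), with -0.119 after centring on strains. Folr1 had r of -0.324 after that centring and -0.386 before it (permutation p = 3e-05, adjusted 0.000175). Slc19a1 had r of 0.277 and rho of 0.321, and Fpgs -0.048 and -0.067. With strain as a covariate in edgeR, 6 of the 9 genes still changed with Mki67, against 32% of all genes (17% upwards and 15% downwards): Tyms, Shmt2, Gart and Mthfd2 upwards with slopes of 0.45, 0.29, 0.20 and 0.20, and Folr1 and Slc46a1 downwards with -0.69 and -0.29. Folr2 at -0.20 (edgeR adjusted p = 0.228) and Slc19a1 at 0.13 (edgeR adjusted p = 0.0848) then missed the threshold. The Mthfd2 slope lost its call in 6 of 11 other settings, with edgeR adjusted p-values up to 0.685, among them RLE factors (0.0918), the fit without the 5 libraries nearer to another strain (0.0642) and that without TAS-I1 (0.0854).

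The other pathway genes were mixed between lists. Of all genes tested 23.9% rose and 29.8% fell with Mki67, or 17% and 15% with strain as a covariate. The counts of the cytosolic and mitochondrial folate lists below lie near those shares. All 9 thymidylate and pyrimidine genes rose with Mki67, among them Rrm1, a subunit of ribonucleotide reductase, with a slope of 0.46 (edgeR adjusted p = 3.23e-30) and Tk1, which salvages thymidine, with 0.55. Of 10 purine synthesis genes 7 rose and 1 fell, with Pfas at 0.36 and Atic, a further enzyme that polyglutamated antifolates inhibit, at 0.26. Of the 10 cytosolic folate genes 3 rose and 4 fell, and of the 10 mitochondrial ones 2 rose and 4 fell, including Aldh1l1 at -0.99, Sardh at -0.71 and Dmgdh at -1.31. Of the 7 export genes, which encode pumps that remove antifolates, 5 fell, including Abcc3 at -0.46 and Abcc2 at -1.37. Of the 16 serine and Atf4 genes 2 rose and 7 fell. With strain as a covariate all 9 thymidylate and pyrimidine genes still rose, and 7 purine genes rose and 1 fell. In the same fit 2 cytosolic folate genes rose and 1 fell, 2 mitochondrial ones rose and 2 fell, 4 serine and Atf4 genes rose and 1 fell, and 2 export genes fell. The 20 genes each of the mitosis and replication lists all rose with Mki67, as did all 8 T cell and all 6 B cell genes tested, while all 10 hepatocyte, 7 kidney, 8 reproductive tract and 6 skeletal muscle genes tested fell. With strain as a covariate the edgeR fit called 0 of the 10 hepatocyte genes (1 at an unadjusted p under 0.05), 0 of the 6 skeletal muscle genes (3 at that p) and 2 of the 7 kidney genes, both lower; of the 8 reproductive tract genes 3 were higher and 1 lower. All 8 T cell genes, 4 of 6 B cell genes and all 20 of each of the mitosis and replication lists rose in that fit too. The part of these cells in the slopes of the folate genes was not tested.

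The strains differed in most of these genes. Among the 25 strains with at least 3 mice, 8 of the 9 genes varied between strains, against 69% of all genes (14283 of 20687). Gart had the lowest p (F = 5.50, edgeR adjusted p = 3.62e-08), followed by Shmt2 (F = 3.99, 8.73e-06), Folr1 (F = 2.80, 0.000863) and Folr2 (F = 2.69, 0.00131). The Folr1 call was lost with limma-voom (adjusted p = 0.504). Slc19a1 (0.0134), Mthfd2 (0.0383), Tyms (0.0386) and Fpgs (0.0452) passed less clearly and Slc46a1 (0.0694) did not pass. In the libraries with over 2 CPM of Umod alone, and in those with over 10 CPM of Svs5 alone, 0 of the 8 were called. Both of these fits held far fewer mice than the main strain test, and their share of all genes called is not given here. They therefore cannot decide whether the 8 genes lost their strain difference in such libraries. Kidney genes held 0.001 to 0.0023% of counts in every CC036, GIT and Piping library, against 0.0002 to 0.0007% in KAV. Whether such strains were handled together is not in the labels, and its part in the strain differences was not tested. Of the other pathway genes, 9 of 10 cytosolic folate genes varied, 6 of 10 mitochondrial, 7 of 10 purine, 8 of 9 thymidylate and pyrimidine, 13 of 16 serine and Atf4, and 5 of 7 export genes.

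With Mki67 as a covariate 6 of the 9 genes still varied between strains, against 60.6% of all genes. Gart (F = 4.32, edgeR adjusted p = 3.61e-06) and Shmt2 (F = 3.62, 4.70e-05) stayed first. Tyms was no longer called (F = 0.925, edgeR adjusted p = 0.606), nor was Mthfd2 (0.0762). Of the 6 genes, Slc19a1 (0.0471) and Fpgs (0.0416) stood near the threshold: of 10 other settings Slc19a1 lost its call in 9 and Fpgs in 4, and of the 25 fits without a strain they lost it in 13 and 15. The settings that follow are those of the strain test without Mki67 as a covariate. Without the 5 libraries nearer to another strain, Gart (edgeR adjusted p = 3.68e-08) and Shmt2 (2.95e-05) varied much as before. In that fit Fpgs was lost (0.0821) and Slc46a1 was gained (0.042). Without mouse CC044-K1 or without CC044-I2, 5 of the 9 were called. Leaving out whole strains in turn kept Gart, Shmt2, Folr1 and Folr2 called in all 25 fits. Slc19a1 was lost without CC040 (0.0712), Mthfd2 without CC044 (0.23), KAV (0.192) or 3 further strains, and Tyms without CC044 (0.219), KAV (0.0759) or 4 further strains. Fpgs was lost in 16 of the 25 fits and Slc46a1 was gained in 8.

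**Figure D4:**
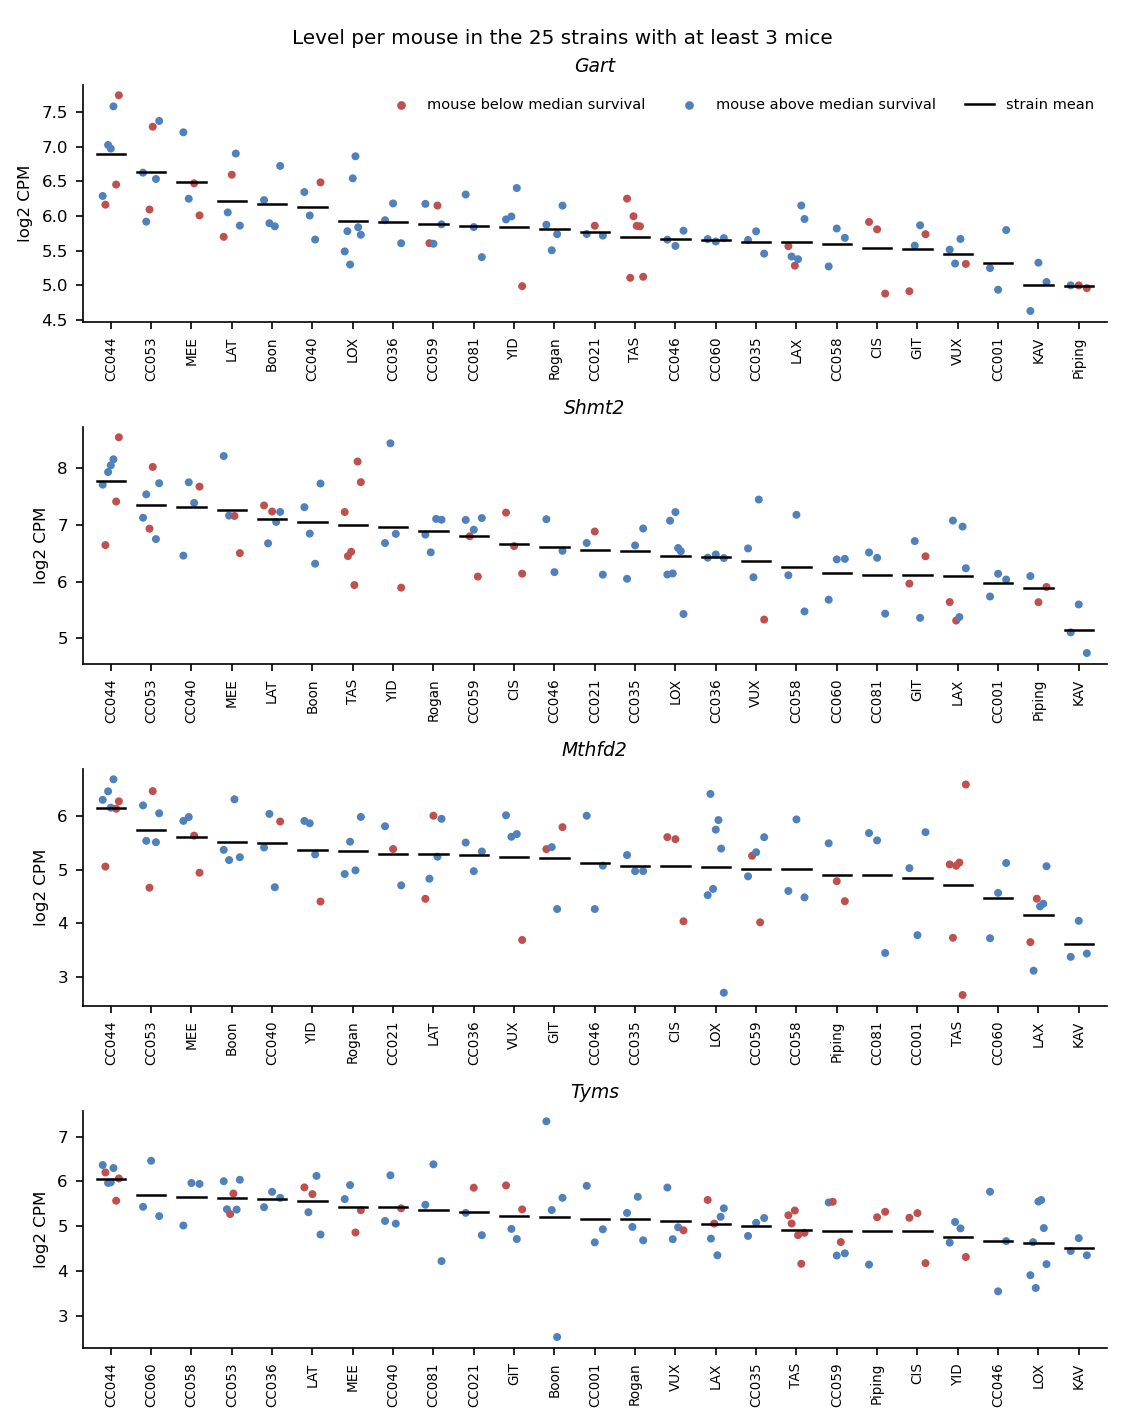
Level of Gart, Shmt2, Mthfd2 and Tyms (log2 CPM, vertical axes) in each mouse of the 25 strains with at least 3 mice (horizontal axes, from the highest strain mean on the left to the lowest on the right); red points are mice below and blue points mice above median survival, and bars are strain means. CC044 stands at the left end for all 4 genes and KAV at the right end for all but Gart, where Piping is lower, while neighbouring strains mostly overlap.

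The CC044 strain stood highest for 4 of the 9 genes, both targets and both mitochondrial enzymes. In its 7 mice, 3 below and 4 above median survival, Gart measured 6.16 to 7.74 log2 CPM with a median of 6.97, Shmt2 6.65 to 8.55 with a median of 7.94, Mthfd2 5.06 to 6.68 with a median of 6.27 and Tyms 5.57 to 6.37 with a median of 6.07. The KAV strain, with 3 mice above the median, stood lowest for Shmt2, Mthfd2, Tyms and Fpgs. Its mice measured 5.10, 5.60 and 4.74 log2 CPM of Shmt2, 3.38, 4.05 and 3.44 of Mthfd2, and 4.45, 4.74 and 4.36 of Tyms. The 2 strains did not overlap in these 3 genes. The difference of their means, CC044 minus KAV, was 2.64 log2 units for Shmt2, 2.53 for Mthfd2 and 1.55 for Tyms. Gart was lowest in the Piping strain, with 4.959, 4.998 and 4.999 log2 CPM, a difference from CC044 of 1.90.

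Mki67 was unequal between the same strains, with a mean of 9.55 ± 1.04 log2 CPM (SD, n = 7) in CC044 and 7.60, 7.78 and 7.07 log2 CPM in the 3 KAV mice. After regression on Mki67 the means of Shmt2 were 0.68 ± 0.49 in CC044 and -1.39 ± 0.34 in KAV, and those of Mthfd2 were 0.63 ± 0.41 and -1.40 ± 0.32 (log2 units, SD, n = 7 and 3), again without overlap. For Tyms the highest strain was then CC058 at 0.28 ± 0.58 and the lowest still KAV at -0.40 ± 0.11, and these overlapped. The highest and lowest of 25 strains differ by construction, so these gaps describe the range and carry no test of their own.

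CC044 stood lowest in Folr2 and Slc46a1. Folr2 measured 4.15 to 5.93 log2 CPM in the 6 TAS mice, the highest strain, and 1.22 to 3.28 log2 CPM in the 7 CC044 mice. All TAS mice were below the median. Slc46a1 had its highest strain mean in TAS at 3.34 ± 1.16 and its lowest in CC044 at 1.89 ± 0.68 (log2 CPM, SD, n = 6 and 7), and these overlapped. The TAS mean of Slc46a1 rests on TAS-I1 at 5.51 log2 CPM, the mouse with the hepatocyte counts given above; the other TAS mice measured 2.35 to 3.65 log2 CPM. Slc19a1 was highest in CC040, with 4.60, 4.72, 5.20 and 4.68 log2 CPM, and lowest in GIT, with 3.35, 3.44, 3.01 and 3.62. Fpgs was highest in Rogan, with 5.47, 4.54, 4.85 and 5.73 log2 CPM, against 4.09, 4.11 and 4.02 in KAV. Folr1 was highest in CC081 through 1 mouse alone, with -1.31, -1.31 and 5.97 log2 CPM.

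In the order of strain means, neighbours were closer than their pooled SD in 23 or 24 of 24 pairs for each gene, and 1 pair in all, for Shmt2, did not overlap. The order is thus one of ends and not of steps. In a mixed model over all 167 tumours, strain took 39.6% of the variance of Gart and 29.3% of that of Shmt2, against a median of 16.6% over all genes tested; 94.3% of genes had a lower strain share than Gart and 83.4% a lower one than Shmt2. Folr2 had 25.1%, Slc19a1 14%, Mthfd2 13.6%, Tyms 12.2%, Fpgs 8.83% and Slc46a1 5.71%. Folr1 had 2.21% between strains and 81.4% between mice of a strain.

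Among the 35 mice with several tumours, the median range between tumours of a mouse was 0.26 log2 units for Tyms, 0.31 for Shmt2, 0.32 for Gart, 0.36 for Slc19a1, Slc46a1 and Fpgs, 0.48 for Mthfd2, 0.69 for Folr2 and 0.83 for Folr1. Single mice went well beyond these. The tumours of LOX-B4 had 28.5 and 230 CPM of Mthfd2, 70.3 and 306 CPM of Shmt2 and 7.11 and 38.3 CPM of Slc46a1, and its higher tumour was the one with 46.3% reproductive tract counts. The 3 tumours of CC059-E2 spanned 9.94 to 34.6 CPM of Tyms and 42.5 to 107.7 CPM of Gart, while their Mki67 spanned 31.2 to 434 CPM.

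The genes were also set beside each other over the 119 mice; these values describe likeness and carry no test. Shmt2 and Mthfd2 correlated with r of 0.623 and rho of 0.653, and with 0.557 and 0.619 after regression on Mki67. Gart and Shmt2 had r of 0.639 and rho of 0.616, and 0.532 and 0.542 after the regression. Fpgs and Shmt2 had r of 0.580 before and 0.670 after it. Tyms and Gart, the 2 targets, had r of 0.417 and rho of 0.474 before the regression and 0.018 and 0.047 after it.

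By Spearman's rho over the 119 mice, the genes most like Folr1 were Myrf at 0.763, Upk1b at 0.759 and Krt14 at 0.756, and after regression on Mki67 Upk1b, Crb2 and Upk3b. Upk1b and Upk3b encode uroplakins that mesothelium also makes. The mesothelial list had a median rho with Folr1 of 0.636, against -0.01 for all genes. Folr2 was most like F13a1 at 0.807, Alox5ap at 0.734 and Mrc1 at 0.713, of which Mrc1 encodes the macrophage mannose receptor, and the macrophage list had a median rho of 0.491, against 0.01 for all genes. After regression on Mki67 Folr2 was most like F13a1, Alox5 and Mrc1.

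Mthfd2 was most like Asns, the asparagine synthetase, at 0.750, and Yars and Gars, which charge tRNA with tyrosine and glycine, at 0.715 and 0.706, and the same 3 genes led after regression on Mki67. The serine and Atf4 list, of which Asns is one, had a median rho with Mthfd2 of 0.418 before and 0.513 after that regression. Shmt2 was most like Mars, the methionyl-tRNA synthetase, at 0.818, Eif5a at 0.797 and Timm50 at 0.761, and after the regression Mars, Mrps18b and Eif5a. Mars lies 205.3 kb from Shmt2 on chromosome 10.

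Gart was most like Impdh2, which commits purines to guanine nucleotides, at 0.753, Hspa14 at 0.751 and Rpa2 at 0.750. After the regression Cfap298, 0.686 Mb away on chromosome 16, led with 0.758, followed by Ifrd2 and Dctpp1. Fpgs was most like Mogs at 0.706, Tor2a at 0.675, which lies 53.1 kb away, and Yif1b, and after the regression Mogs, Smyd5 and Ccnf. Slc19a1 was most like Grwd1 at 0.661, Snrpf and Ptbp1, and afterwards Thop1, Polrmt and Grwd1. Slc46a1 was most like Vkorc1 at 0.652, Kctd21 and Hs1bp3, and afterwards Yif1a, Abhd14b and Kctd21.

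Tyms was most like Tacc3 at 0.881, Slbp at 0.862 and Rfc5 at 0.856, genes of the spindle, of histone messages and of DNA replication that all lie on chromosome 5 as Tyms does. After regression on Mki67 the 3 leading genes were again of chromosome 5: Tacc3 at 0.732, Cenpa at 0.700 and Cdk5 at 0.671, with Cenpa 0.593 Mb from Tyms. Of the 100 genes most like Tyms, 19 were on chromosome 5 before the regression and 49 after it, and 45 when the levels were also centred on strain means; 6.04% of all genes tested are on that chromosome. Within 10 Mb of Tyms lay 32 of the 100, against 1.11% of genes tested.

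**Figure D5:**
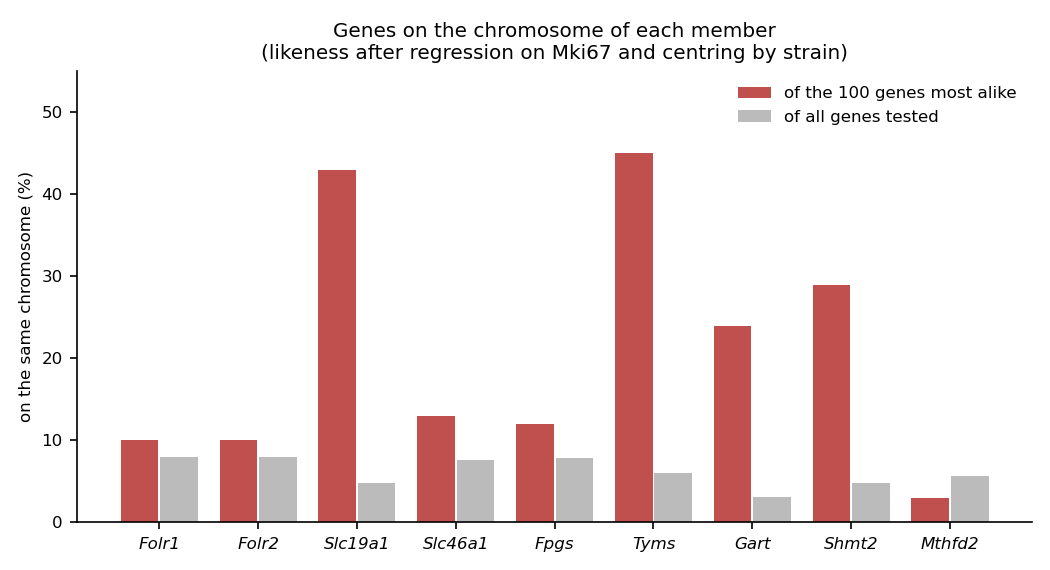
Share of genes (vertical axis, %) that lie on the chromosome of each folate gene, among the 100 genes most like it over the mice after regression on Mki67 and centring on strain means (red bars) and among all genes tested (grey bars). Tyms reaches 45%, Slc19a1 43%, Shmt2 29% and Gart 24%, while Mthfd2 at 3%, and Folr1 and Folr2 at 10%, stand near their grey bars.

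For Slc19a1 the counts on its own chromosome were 28 before the regression, 39 after it and 43 with centring on strains too, where chromosome 10 holds 4.80% of genes tested and 27 of the 43 were within 10 Mb. For Shmt2, on the same chromosome, they were 14, 23 and 29. For Gart they were 6, 8 and 24, where chromosome 16 holds 3.04%. Fpgs had 21, 21 and 12 on chromosome 2, which holds 7.90%, and Slc46a1 had 14, 11 and 13 on chromosome 11, which holds 7.65%. Folr1 had 6, 7 and 10 and Folr2 8, 9 and 10, near the 7.97% of genes tested that chromosome 7 holds, and Mthfd2 5, 8 and 3 near the 5.60% of chromosome 6. The mice share strains, and the genes share libraries, so these are counts over the same 119 points.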

How the data were processed

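Whole tumours were homogenised and RNA was made into strand-specific libraries, per the labels' protocols. The authors deposited estimated counts per gene as whole numbers; per the submitters' processing notes kallisto 0.46.1, GRCm38, DESeq2 and DESeq were used, while settings, annotation release and the summing of transcripts to genes were not part of those notes. A second deposited table, named as normalised, held the same counts in all 3682183 cells of its 22049 genes and was not used. The counts of 165 columns matched 1 sample title each, and 2 columns of mouse GIT-K1 matched that mouse only.

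Counts were summed per mouse. TMM factors, filterByExpr and the quasi-likelihood F-test of edgeR 4.0.16 (R 4.3.3) were used, two-sided, with Benjamini-Hochberg adjustment over all genes tested and a threshold of 0.05; all 9 genes passed the filter in each test. The Mki67 covariate and log2 CPM used a prior count of 2. Fits without 1 strain kept the trended dispersion of the full fit. Variance shares came from lme4 1.1.37, and limma 3.58.1 and DESeq2 1.42.0 served as alternatives. Correlations used 100000 permutations of the mice, which ignores that mice share strains. Positions are from GENCODE on GRCm38, and promoters from RefSeq on GRCm38.p6.

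The 9 genes and all lists were chosen with earlier results of these data known. Named among the other pathway genes are those that passed in a class comparison and, for strain and Mki67, the 2 of lowest p of each list where the text gives examples; 1 gene that this rule names is not reported here. For likeness the 3 genes of highest rho with a mean of at least 5 CPM are named. Of the 20 closest pairs of libraries none differed by less than counting noise. The closest, both of mouse FUF-H2, had Pearson's r of 0.991. They differed by 2.87 times counting noise (chi-square per degree of freedom), against 17.2 or more for the other pairs. Their titles do not say whether they are separate tumours, and they were counted as such. Some of the 20 pairs joined mice of different strains. Tumour 1 of MEE-A3 paired with tumours 2 and 3 of CC044-K1 (r of 0.984 and 0.980). Tumour 2 of LOX-D1 paired with tumour 1 of LAT-D3 (0.981), and tumour 1 of LAT-F5 with tumour 2 of CC059-F2 (0.979). Whether any of these libraries carries the wrong label was not tested. Each test was tried on simulated counts first. The p-values measure the spread between mice. Depth of 11138491 to 35399287 counts per library gives every gene but Folr1 a median above 5 CPM.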

Additional observations from a re-analysis of the deposited data

Results flagged for a closer look

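In the 14 strains with 4 to 10 mice, each gene was searched for a mouse that stood apart from the others of its strain, by the gap to the nearest mouse over the whole range. Of the 126 groups 5 held such a mouse, where chance gives about 1 in 20. Folr1 was 2.74 log2 CPM in CC053-B1, the highest of 6 CC053 mice, with the next at -0.59. Folr2 was 5.93 log2 CPM in TAS-J2, the highest of 6 TAS mice, with the next at 4.77. Fpgs was 7.34 log2 CPM in TAS-I1, the highest of the same 6 mice, with the next at 4.78. Mthfd2 was 6.31 log2 CPM in Boon-I2, the highest of 4 Boon mice, with the next at 5.37, and it was 5.06 log2 CPM in CC044-F2, the lowest of 7 CC044 mice, with the next at 6.13. All but Boon-I2 were mice below median survival, a label that TAS-J2 and TAS-I1 share with their whole strain. The 5 groups do not exceed the rate that chance gives, so no link to survival is drawn from them.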

How the results depend on the processing

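No paired analysis was possible because mice below and above the median share no animal, and the replicate numbers do not pair them; strain as a covariate was its own comparison. In the survival comparisons 0 of the 9 genes were called under any alternative. The settings without 5 libraries, by Umod or Svs5, without TAS-I1 and without each gene's highest mouse were chosen after seeing the data. The cause of each change below was not tested.

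The sign of several differences turned. Over all mice the log2 difference was 0.0106 for Folr2 and 0.0123 for Slc46a1 with 1 tumour per mouse, 0.0088 for Slc46a1 with DESeq2 and 0.0105 with RLE factors, 0.14 for Folr2 and 0.0901 for Tyms with limma-voom, and 0.0060 for Folr2 without the 5 libraries nearer to another strain. It was 0.0082 for Tyms and 0.0158 for Mthfd2 without libraries with over 1% of other tissues, and -0.0096 for Fpgs, 0.0073 for Tyms and -6.105e-05 for Shmt2 without TAS-I1. In libraries with over 10 CPM of Svs5, a seminal vesicle gene, it was 0.0985 for Folr2, -0.40 for Fpgs, 0.28 for Tyms, 0.0879 for Gart and -0.46 for Shmt2, and in the others 0.0268 for Slc46a1. In libraries with over 2 CPM of Umod, a kidney gene, it was -0.0803 for Fpgs, 0.20 for Tyms and -0.29 for Shmt2, and in the others 0.42 for Folr1, 0.19 for Folr2, 0.18 for Slc46a1 and 0.0042 for Gart. With Mki67 it was 0.17 for Folr2 and 0.00018 for Slc46a1 by limma-voom, 0.0441 and 0.0576 for Folr2 with a mitosis or a replication score in place of Mki67, 0.0099 for Mthfd2 without the tissue libraries, and -0.0090 for Fpgs and -0.0390 for Shmt2 without TAS-I1. Within strains Fpgs was 0.0294 by limma-voom, and 0.0253 with Mki67.

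Leaving out a strain each, the differences ranged from -1.05 to 0.20 for Folr1, -0.36 to 0.17 for Folr2, -0.28 to 0.18 for Slc46a1, -0.0505 to 0.0483 for Tyms, -0.0631 to 0.0135 for Gart and -0.0095 to 0.11 for Shmt2. With Mki67 they ranged from -0.30 to 0.14 for Folr2, -0.26 to 0.0406 for Slc46a1 and -0.0903 to 0.13 for Shmt2. Within strains Fpgs ranged from -0.13 to 0.0318, and from -0.12 to 0.0217 with Mki67.

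The main strain test called 8 of the 9 genes. Of the 9, 0 were called in the Svs5 libraries alone (9 mice) and 0 in the Umod libraries alone (28 mice). In the libraries with up to 2 CPM of Umod 5 were called, and also 5 without CC044-K1 and 5 without CC044-I2. Leaving out a strain each, 5 to 9 were called, and 5 was reached without CC044, CC053 or KAV. DESeq2 called 9 and limma-voom 6, with Folr1 lost (adjusted p = 0.504). With Mki67, Slc19a1 was lost in 13 of 25 such fits and Fpgs in 15. Of the 9 Mki67 slopes 8 were called in the main fit. In the Svs5 libraries alone (29 mice) 3 of the 9 were called, and the Fpgs slope was 0.0883. In the Umod libraries alone (30 mice) 4 were called, and the Slc19a1 slope was -0.0077. The strain share of Folr1 was 5.59% at a prior count of 0.5 and 0.294% at 5; a median of 0.239 CPM per kilobase limits what can be said of this gene.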
